A study of Homo sapiens with 9 samples.

Results

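The comparison described here is the differentiation of control esophageal epithelial cells at an air-liquid interface (ALI). Its members are the 3 libraries of differentiated ALI cultures (ALI control) and the 3 libraries of undifferentiated monolayer, 6 of the 9 libraries of the series, and they were chosen by their labels and not by a measured value. All 6 carry a non-silencing control construct. All 9 come from EPC2, an established human esophageal epithelial line immortalized with telomerase reverse transcriptase, so the comparison rests on 1 line. The ALI cultures were seeded on permeable supports on day 0, kept under medium with 0.09 mM calcium until day 2 and with 1.8 mM calcium until day 7, then opened to air on the upper side and harvested on day 14, per the labels; the names of the deposited ALI files read day 7, and whether they count from seeding or from air exposure is not stated. The keratinocyte serum-free medium held 1 ng/mL EGF and 50 µg/mL bovine pituitary extract, per the labels, in all groups. The remaining 3 libraries are ALI cultures of EPC2 cells in which SPINK7, a protease inhibitor gene, was silenced; they helped to estimate the spread in the model and are not described. The labels do not give the calcium, the support or the harvest day of the monolayers separately, so air, calcium, time and support cannot be told apart in any difference below. Whether replicate libraries trace to independent cultures is not labelled. Each p-value therefore reflects library-to-library spread, part or all of which may be technical.

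The esophagus is lined by a stratified squamous epithelium. Its basal cells sit on a laminin-rich basement membrane, attach to it through hemidesmosomes and integrins, and divide. Cells that leave the basal layer stop dividing, build desmosomes and tight junctions, fill with suprabasal keratins and cross-linked envelope proteins, and secrete lipids and protease inhibitors. In keratinocytes this sequence is started by calcium and by loss of contact with the basement membrane, and it is carried out by factors of the grainyhead, KLF, OVOL, ETS and C/EBP families. A cell line grown flat on plastic or on a support in low calcium stays close to a basal or wound-edge state, and exposure to air above a confluent sheet lets it stratify.

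Library totals lay between 7641960 and 12989094 counts over the 6 libraries. Values are CPM, read counts scaled to library sizes adjusted by the trimmed mean of M-values, listed for libraries 1, 2 and 3 of a group in that order. Differences are log2 fold changes (ALI control minus monolayer) with their standard error (SE) from edgeR's quasi-likelihood test across all genes, with Benjamini-Hochberg adjustment, and "rose", "fell" and "called" mean an adjusted p under 0.05. Monolayer libraries 2 and 3 were far closer to each other (chi-square per degree of freedom 1.86 over genes) than any other pair within a group (15.9 to 150). Those pairs include the SPINK7-silenced libraries, and pairs between groups were not measured. ALI control library 2 stood apart from ALI control libraries 1 and 3.

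The labelled cell type was checked against its markers. KRT5 (CPM 12710, 13170 and 12710 in monolayer and 16930, 7019 and 19520 in ALI control), the basal keratin of squamous epithelium, CDH1 (E-cadherin, 527, 424 and 417 against 565, 208 and 456) and TP63 (the master factor of stratified epithelia, 384, 352 and 355 against 279.7, 257 and 219.7) were high in every library. KRT4 and KRT13, the keratin pair of the upper esophageal epithelium, were near 0 in monolayer (0.779, 0.506 and 1.28 and 0.425, 0.607 and 0.213) and present in ALI control (555, 379 and 676 and 71, 22.7 and 83.4). KRT1 and KRT10, the pair of cornifying skin, were also high in ALI control: KRT1 went from 0.0708, 0.202 and 0.638 to 3618, 888 and 3814 CPM and KRT10 from 18.7, 13.6 and 18.3 to 5228, 918 and 4012 CPM. In the lists of other cell types, 3 of 12 fibroblast markers, 2 of 12 leukocyte markers, 1 of 8 endothelial markers, 1 of 6 melanocyte markers and 0 of 12 glandular and intestinal markers passed the low-count filter. PTPRC (CD45), CD3D, CD4 and MS4A1 of leukocytes, TIE1 and CLDN5 of endothelium and TYR and DCT of melanocytes had 0 counts in all 6 libraries, as did CDX1, CDX2, VIL1, TFF1, TFF3, MUC2, MUC6, GATA4 and HNF4A of glandular and intestinal epithelium. Summed levels were 283, 62.9 and 63.9 CPM in monolayer and 47.5, 44.9 and 59.2 in ALI control for the fibroblast list, which was led by COL1A1, and 16.7, 29.9 and 27.5 against 54.2, 67.7 and 71.6 for the leukocyte list, nearly all from the lysosomal gene CD68. CD68 (1.3 ± 0.26 (SE), adjusted p = 0.00363) and the endothelial gene VWF (5.24 ± 0.76 (SE), adjusted p = 0.000545) were the 2 members of these lists that were called. These are bulk libraries, so fewer cells of a type and less RNA per cell cannot be told apart.

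Differentiation changed the most abundant transcripts. Per length (RPKM, summed over a gene's transcripts), PI3 (elafin, a protease inhibitor of squamous epithelium) was the leading gene of ALI control with 16270, 28650 and 17370 RPKM against 5.14, 8.37 and 9.38 in monolayer. It was followed by S100A9 and S100A8 (the calprotectin subunits), the keratins KRT6A, KRT17 and KRT14, SPRR2E (a cornified envelope precursor) and SLPI (secretory leukocyte peptidase inhibitor). S100A9 stood at 11400, 15570 and 14070 RPKM against 21.7, 37.5 and 42.7, SPRR2E at 5973, 6738 and 6549 against 2.52, 2.82 and 2.84, and SLPI at 3766, 8418 and 4809 against 3.17, 4.11 and 5.47. In each of these 4 genes the lowest ALI control library was more than 100 times the highest monolayer library. KRT16, SPRR1B, CSTA (cystatin A), SPRR2D and SPRR2A completed the rises among the 15 leading genes, 13 of which were called higher and 0 lower. KRT5 and TPT1 were the 2 leading genes of ALI control that were not called.

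FN1 (fibronectin, the main adhesive glycoprotein of provisional matrix) led the monolayer with 4728, 5590 and 5141 RPKM and fell to 49.7, 22.6 and 34.8 RPKM in ALI control. The monolayer's other leading genes included KRT5, S100A2, TPT1, KRT14, ACTB, KRT6A, GAPDH, TMSB10, KRT17, S100A11, ACTG1, RPLP1 and KRT19. KRT19 (a keratin of simple epithelia) went from 1611, 1748 and 1644 to 279, 108 and 343 RPKM. ACTB differed widely within both groups (1333, 3461 and 3485 against 2273, 467 and 2046 RPKM) and was not called (-0.65 ± 0.60 (SE), adjusted p = 0.408). The 15 leading genes of each state shared 5 names (KRT5, TPT1, KRT14, KRT6A and KRT17) and held 23.2% of all RPKM in ALI control against 11.5% in monolayer. Each ALI control library lay between 22.4% and 24.5%, and each monolayer library between 10.8% and 11.9%, so the groups did not overlap. The KRT6A, KRT14, KRT16, KRT17, SPRR2 and S100 genes have near-identical relatives, and reads that fit several copies may have been split between them in the deposited counts.

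**Figure D1:**
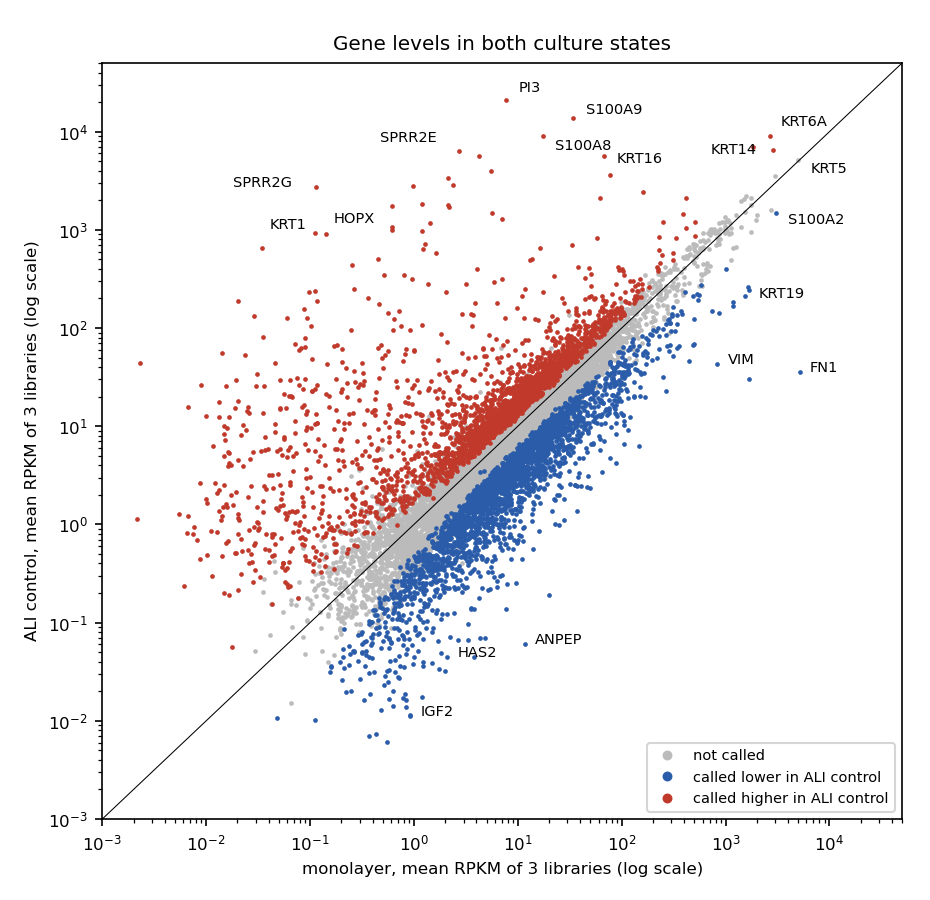
Mean level of each tested gene in monolayer (x axis, RPKM, log scale) against ALI control (y axis, RPKM, log scale), each a mean of 3 libraries; red points were called higher in ALI control, blue lower and grey neither, and the line marks equal levels. PI3, S100A9 and SPRR2E lie far above the line and FN1 far below it, while KRT5 lies close to it; 127 genes at 0 in a group are not drawn, which leaves 12679.

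Of 12806 genes tested (24672 in the deposited tables), 2601 rose and 2589 fell, 20.3% and 20.2% of those tested, and the median over all genes was 0.03. Every list count is to be read against these shares. A list near them shows no change particular to its members. Of the calls 50.1% were rises; with total-count scaling that share was 40.2%, and on log2(RPKM + 1) and log2(RPKM + 0.1) it was 36.4% and 37.6%. The CPM of the groups did not overlap for 57.3% of the tested genes, so a lack of overlap in a named gene is common and adds little to its call. At least 4-fold changes were called for 863 genes upward and 723 downward. When each library in turn was left out, 1603 of the higher and 1664 of the lower calls held in all 6 fits. The largest rises came from genes with next to no reads in monolayer. WFDC12 (a small antiprotease) had 0 counts in monolayer and 412, 708 and 604 CPM in ALI control, at least 6450-fold higher when 3 counts over the monolayer group are taken as the floor. Counted the same way, C15orf48 was at least 1480-fold, KPRP (a cornified envelope protein) at least 1470-fold, STEAP4 (a metalloreductase) at least 1450-fold, AZGP1 (zinc-alpha-2-glycoprotein) at least 1440-fold and MUC15 at least 1020-fold higher. SPRR2G had 3 counts over the monolayer group and a ratio of 25400 (95% interval 8700 to 123000), and RPTN (repetin) 3 counts and a ratio of 9690 (95% interval 3320 to 47000). These intervals, and all others given for a ratio, cover counting error only and leave out the spread between libraries.

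The falls were fewer at the extremes. With at least 5 CPM in every library of one state and under 0.5 CPM in every library of the other, 180 genes marked ALI control and 9 marked the monolayer: ANPEP, CDH10, DENND2A, FZD10, GDNF, LIMD2, SALL2, SV2A and VCAN. ANPEP (aminopeptidase N) went from 27, 59.8 and 54.5 to 0.268, 0.126 and 0.423 CPM (-7.33 ± 0.57 (SE), adjusted p = 1.09e-05). GDNF, a neurotrophic factor, was at 17, 13.8 and 14.5 CPM in monolayer and had 0 counts in ALI control, at least 127-fold lower. CYP24A1, which breaks down active vitamin D, was at 1.77, 15.4 and 13.7 CPM in monolayer, lowest in library 1, and also had 0 counts in ALI control (at least 75.9-fold lower).

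The start regions of a few of these genes are shown because each gene changed by more than 10-fold; the genes were picked after both their values and their motif matches were known. The sequences are the 250 bases before the annotated start from RefSeq (GRCh38.p14, coding strand, 5′ to 3′). Capitals mark matches on either strand to AACNNGTT, the core that grainyhead (GRHL) factors recognize, or to TGACGTCA, the cyclic AMP response element (CRE). They also mark TGANTCA, a loose form of the AP-1 core that allows any middle base, as in TGATTCA of RPTN and TGAATCA of SPRR1B. AACNNGTT occurs in 2.97%, TGANTCA in 6.6% and TGACGTCA in 1.77% of 27305 RefSeq promoters of this length. These shares take 1 promoter per gene without regard to matches. ABCA12 and ADH7 each have 2 listed promoters, and the promoter shown was picked by its number of matches, so the shares are no like comparison. None of the matches shown overlaps another.
ABCA12 (chr2:215032087-215032336, minus strand, GRHL match 57 to 50 bases before the start): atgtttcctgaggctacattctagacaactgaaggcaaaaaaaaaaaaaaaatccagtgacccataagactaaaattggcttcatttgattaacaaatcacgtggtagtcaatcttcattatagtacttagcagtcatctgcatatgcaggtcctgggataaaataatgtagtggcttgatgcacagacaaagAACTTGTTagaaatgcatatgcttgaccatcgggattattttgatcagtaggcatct
ADH7 (chr4:99435343-99435592, minus strand, GRHL match at 220 to 213 and AP-1 match at 34 to 28): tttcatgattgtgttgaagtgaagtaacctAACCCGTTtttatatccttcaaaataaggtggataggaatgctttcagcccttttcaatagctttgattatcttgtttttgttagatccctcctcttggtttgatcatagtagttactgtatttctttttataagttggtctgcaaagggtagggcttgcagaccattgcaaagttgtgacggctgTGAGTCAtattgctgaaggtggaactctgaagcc
RPTN (chr1:152159229-152159478, minus strand, GRHL match at 186 to 179 and AP-1 match at 95 to 89): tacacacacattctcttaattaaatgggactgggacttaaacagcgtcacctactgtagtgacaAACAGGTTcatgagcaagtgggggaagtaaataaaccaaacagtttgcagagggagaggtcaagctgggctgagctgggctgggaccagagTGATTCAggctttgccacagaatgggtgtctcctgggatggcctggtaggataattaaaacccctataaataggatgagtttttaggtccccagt
SPINK5 (chr5:148063730-148063979, plus strand, GRHL match at 61 to 54): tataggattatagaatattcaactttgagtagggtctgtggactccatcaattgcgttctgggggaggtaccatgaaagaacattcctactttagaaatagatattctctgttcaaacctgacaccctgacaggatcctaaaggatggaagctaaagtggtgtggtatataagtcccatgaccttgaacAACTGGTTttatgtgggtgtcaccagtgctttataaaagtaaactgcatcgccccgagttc
SPRR1B (chr1:153030953-153031202, plus strand, AP-1 matches at 141 to 135 and 111 to 105): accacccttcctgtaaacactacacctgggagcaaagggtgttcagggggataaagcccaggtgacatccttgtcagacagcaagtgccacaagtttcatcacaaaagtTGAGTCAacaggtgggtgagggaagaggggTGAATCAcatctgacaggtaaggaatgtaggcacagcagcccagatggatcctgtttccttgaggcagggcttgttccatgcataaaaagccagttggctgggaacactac
FN1 (chr2:215436069-215436318, minus strand, CRE match at 183 to 176): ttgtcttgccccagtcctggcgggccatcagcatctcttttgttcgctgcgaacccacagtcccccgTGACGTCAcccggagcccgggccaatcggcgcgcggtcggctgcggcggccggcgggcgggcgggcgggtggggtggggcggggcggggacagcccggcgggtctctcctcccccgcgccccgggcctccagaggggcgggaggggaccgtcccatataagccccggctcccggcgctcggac
A match is a run of letters and not a measured binding site. ABCA12 carries lipid into lamellar granules, ADH7 oxidizes ethanol and retinol in the upper digestive tract, repetin and SPRR1B are envelope precursors, and SPINK5 encodes the kallikrein inhibitor LEKTI. SPINK5 went from 4.6, 5.87 and 6.6 to 3536, 9747 and 3475 CPM (9.94 ± 0.70 (SE), adjusted p = 6.31e-06). SPRR1B went from 4.89, 2.63 and 3.83 to 3471, 2652 and 3087 CPM (9.65 ± 0.43 (SE), adjusted p = 7.83e-07), with no overlap between the groups.

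Transcription factors of squamous differentiation were mostly higher in ALI control. Of 26 listed genes 23 were tested, 19 rose and 1 fell (20.3% and 20.2% of all genes), with a median log2 fold change of 1.53 against 0.03 over all genes; leaving out ALI control library 2 gave 2 falls. HOPX, a homeodomain-only cofactor, was at 0.212, 1.01 and 1.28 CPM in monolayer and 1156, 3040 and 1119 CPM in ALI control (11.12 ± 0.84 (SE), adjusted p = 9.85e-06). ALI control library 2 was the highest and the groups did not overlap. ELF3, an epithelial ETS factor, had 1 count in the monolayer group and 69.1, 39.4 and 98.3 CPM in ALI control, a ratio of 2360 (95% interval 424 to 93400, counting error only). Its relative EHF rose from 264, 329.9 and 338 to 659, 973 and 568 CPM (1.24 ± 0.28 (SE), adjusted p = 0.00568).

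The grainyhead factors moved to different extents. GRHL1 went from 3.33, 0.809 and 1.28 to 279, 358 and 229 CPM (7.25 ± 0.53 (SE), adjusted p = 7.72e-06). GRHL3 went from 18.8, 2.93 and 1.92 to 147, 74.7 and 163 CPM (3.99 ± 0.74 (SE), adjusted p = 0.00228). In both genes monolayer library 1 was the highest of its group, and for GRHL3 it was over 5 times the others, but the groups did not overlap. OVOL1, a zinc finger repressor, went from 2.76, 0.405 and 0.426 to 63, 47 and 57.4 CPM (5.42 ± 0.58 (SE), adjusted p = 8.1e-05). ZNF750, a p63 target needed for late differentiation, went from 3.04, 0.506 and 0.638 to 68, 38.2 and 59.7 CPM (5.21 ± 0.61 (SE), adjusted p = 0.000143). Both were higher in monolayer library 1 than in libraries 2 and 3. KLF4, the barrier factor, rose by 1.41 ± 0.29 (SE) from a higher base of 98.7, 48.5 and 48.6 CPM, and CEBPA, which slows division and favours differentiation, rose by 3.64 ± 0.42 (SE). BARX2 and PRDM1 (BLIMP1) rose by 2.98 and 1.53. KDM6B, a histone H3K27 demethylase, was the member that fell (-1.54 ± 0.36 (SE), adjusted p = 0.00762).

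Factors of basal and esophageal identity split. Of 27 listed genes 24 were tested, 11 rose, 8 fell and the median was 0.11 (-0.03 with total-count scaling and 0.33 without ALI control library 2). PAX9, needed for esophageal keratinocyte maturation, went from 10.1, 8.7 and 11.9 to 72.7, 43.9 and 51.4 CPM (2.45 ± 0.27 (SE), adjusted p = 0.000106). SOX2, which specifies the esophagus, went from 2.83, 1.21 and 0.958 to 7.37, 12.1 and 8.46 CPM (2.44 ± 0.42 (SE), adjusted p = 0.00144). Both were higher in all 3 ALI control libraries than in any monolayer. KLF5, active in proliferating squamous cells, rose by 2.0 ± 0.23 (SE) and TRIM29, abundant in stratified epithelia, by 1.99 ± 0.42 (SE). The inhibitor-of-differentiation genes ID1 (2.4), ID2 (3.67) and ID4 (0 counts in monolayer, at least 70.3-fold higher) rose as well. ID2 stood at 7.37, 56.5 and 6.56 CPM in ALI control, mainly in library 2, and without that library its log2 fold change was 1.93 (adjusted p = 0.0106 in edgeR's quasi-likelihood test). SOX4, a factor of progenitor cells, went from 285, 284 and 292 to 45.3, 47.3 and 28.7 CPM (-2.83 ± 0.24 (SE), adjusted p = 1.66e-05). HMGA2, a chromatin protein of growing cells, went from 433, 494 and 517 to 75, 38.9 and 41.3 CPM (-3.22 ± 0.30 (SE), adjusted p = 3.37e-05). TBX3, a repressor active in immature cells, went from 35.5, 68.8 and 66.7 to 6.56, 2.65 and 4.02 CPM (-3.69 ± 0.39 (SE), adjusted p = 7.27e-05). All 3 were lower in every ALI control library than in any monolayer. RUNX1 fell by 1.90 on the log2 scale. TP63 itself missed the threshold (-0.53 ± 0.20 (SE), adjusted p = 0.0561, 95% interval -1.01 to -0.04). It was lower in each ALI control library than in any monolayer, but 57.3% of all tested genes did not overlap between the groups.

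**Figure D2:**
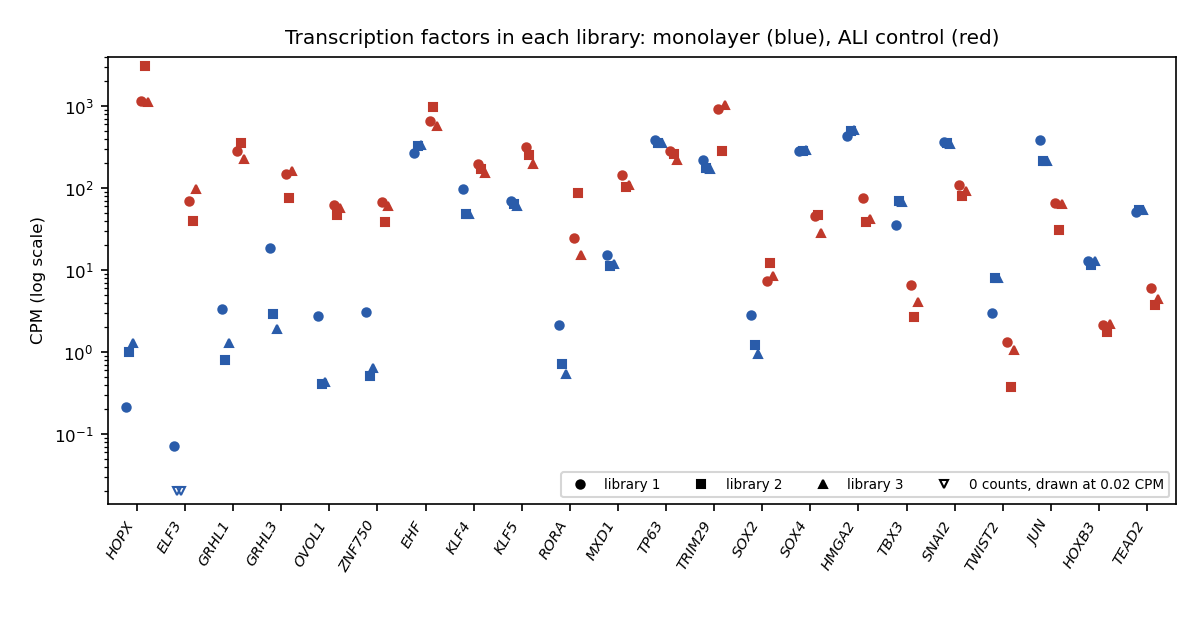
CPM (log scale) of transcription factors in each library, monolayer in blue and ALI control in red, with circles, squares and triangles for libraries 1, 2 and 3; open triangles mark 0 counts, drawn at 0.02 CPM. HOPX, GRHL1 and OVOL1 are separated widely between the groups, monolayer library 1 is the highest monolayer for GRHL3, OVOL1 and ZNF750, and HMGA2, SOX4 and TBX3 lie lower in ALI control.

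HOX genes, which encode position along the body axis, had 39 listed and 18 tested members, 0 rose and 12 fell, with a median of -1.56. HOXB3 (13, 11.5 and 12.9 against 2.14, 1.77 and 2.22 CPM) and HOXA3 (8.78, 9.01 and 7.66 against 1.88, 1.77 and 1.06 CPM) were lower in every ALI control library than in any monolayer. A lack of overlap held for 57.3% of all tested genes. The mesenchymal transition factors had 5 of 10 tested members, of which 3 fell and 0 rose. For both lists the count of rises was also 0 at an unadjusted p under 0.05 in edgeR, with DESeq2 and with limma-voom. SNAI2 (Slug) went from 364, 351 and 344 to 110.4, 80.1 and 92.7 CPM (-1.9 ± 0.20 (SE), adjusted p = 7.27e-05). TWIST2 went from 2.97, 7.89 and 8.09 to 1.34, 0.378 and 1.06 CPM (-2.75 ± 0.64 (SE), adjusted p = 0.0074). Among AP-1 and immediate early factors 1 of 17 tested members rose and 5 fell, against 20.3% and 20.2% of all tested genes. Only 3 fell without ALI control library 2 and 2 without monolayer library 1. JUN, a core AP-1 subunit, fell from 386, 212 and 211 to 66.4, 30.4 and 64.2 CPM (-2.33 ± 0.36 (SE), adjusted p = 0.000867). EGR3 rose from 2.69, 2.23 and 1.28 to 11.4, 11 and 5.92 CPM.

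The nuclear receptors, hormone- and lipid-sensing factors, had 4 rises and 3 falls among 23 tested members of 33. Of all tested genes 20.3% rose and 20.2% fell, so these counts were no more than that background. Rises numbered 2 when ALI control library 1 or 3 or any monolayer library was left out. RORA rose from 2.12, 0.708 and 0.532 to 24.8, 86.1 and 15.3 CPM (5.14 ± 0.84 (SE), adjusted p = 0.00112), with ALI control library 2 more than 3 times the others; without it the log2 fold change was 4.07 (adjusted p = 0.00124 in edgeR's quasi-likelihood test). The retinoic acid receptors moved in opposite directions, RARG up (1.02 ± 0.24 (SE), adjusted p = 0.00824) and RARA down (-2.2 ± 0.34 (SE), adjusted p = 0.000754). YAP and TEAD pathway genes, which report cell spreading and contact, had 3 rises and 9 falls among 24 tested members of 25; without ALI control library 2 there were 5 rises. TEAD2 fell from 51.3, 53.8 and 54.3 to 6.03, 3.78 and 4.44 CPM (-3.48 ± 0.29 (SE), adjusted p = 1.56e-05). On the log2 scale the target gene CTGF fell by 1.90. CYR61 fell by 1.48 and the kinase gene AXL fell by 3.75, while YAP1 was not called (0.07 ± 0.21 (SE), adjusted p = 0.804). VGLL1, a TEAD cofactor of epithelia, had 0 counts in monolayer and 17.6, 9.46 and 18 CPM in ALI control, at least 168-fold higher. FOXN1, a factor of keratinocyte maturation, rose by 6.05 ± 0.85 (SE) and FOXQ1 by 2.53 ± 0.35 (SE). The FOX list held 3 rises and 6 falls among 21 tested of 43, against 20.3% and 20.2% of all tested genes, and the 6 members that fell are not described. Of 445 tested numbered zinc finger genes (525 listed) 31 rose and 103 fell, against 20.3% and 20.2% of all tested genes. Their median was -0.24 (-0.4 with total-count scaling and -0.36 without ALI control library 2). Those counts depend on the monolayers: rises numbered 15 without monolayer library 2 and 16 without library 3, and falls numbered 61, 64 and 65 without libraries 1, 2 and 3.

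EGF receptor ligands drive keratinocyte growth and repair. Of 8 tested members (12 listed) 4 rose and 1 fell. EREG (epiregulin) went from 5.67, 9.81 and 12.4 to 96, 91.3 and 49.1 CPM (3.09 ± 0.35 (SE), adjusted p = 0.00012). EPGN (epigen) went from 1.27, 0.202 and 0.426 to 8.57, 20.6 and 7.3 CPM (4.13 ± 0.65 (SE), adjusted p = 0.000886). TGFA went from 65.4, 159.7 and 165 to 334, 308 and 271 CPM (1.23 ± 0.32 (SE), adjusted p = 0.0134). EPGN was highest in ALI control library 2, and TGFA was lowest in monolayer library 1. AREG (amphiregulin) fell from 12.7, 13.7 and 13.6 to 6.03, 5.93 and 8.04 CPM (-0.99 ± 0.24 (SE), adjusted p = 0.00946). Among the receptors, ERBB3 rose from 11.4, 8.3 and 8.41 to 86.4, 56.2 and 102 CPM (3.12 ± 0.29 (SE), adjusted p = 3.08e-05), while EGFR (-0.15, 95% interval -1.01 to 0.70) and ERBB2 (0.1, 95% interval -0.76 to 0.97) were not called and their groups overlapped. Over receptors and feedback inhibitors, 3 of 17 tested members rose and 8 fell, with 4 falls without monolayer library 2 and 5 without library 3. SPRED3, an inhibitor of the RAS pathway, fell from 11.6, 19 and 19.5 to 1.21, 0.504 and 2.22 CPM (-3.63 ± 0.65 (SE), adjusted p = 0.00182).

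The TGF-beta family, which restrains epithelial growth and drives matrix production, was lower in most called members. Of 19 tested ligands and receptors (24 listed) 1 rose and 10 fell, against 20.3% and 20.2% of all tested genes. Their median was -1.03, and without monolayer library 1 there were 2 rises. INHBA (the activin A subunit) went from 158, 310.0 and 301 to 24.1, 7.06 and 21 CPM (-3.88 ± 0.48 (SE), adjusted p = 0.000201). TGFB1 went from 79.95, 92.5 and 89.2 to 22.2, 12.1 and 26.3 CPM (-2.11 ± 0.35 (SE), adjusted p = 0.00122). TGFB2 went from 39.2, 61.8 and 65.8 to 13.7, 19.7 and 7.19 CPM (-2.04 ± 0.37 (SE), adjusted p = 0.00184). None of these 3 genes overlapped between the groups, as held for 57.3% of all tested genes. The receptors TGFBR2 (-1.03 ± 0.25 (SE), adjusted p = 0.00886) and BMPR2 (-1.45 ± 0.20 (SE), adjusted p = 0.000435) fell as well, and BMP6, a ligand linked to keratinocyte maturation, was the member that rose (0.212, 0.202 and 0.638 against 6.56, 6.31 and 4.86 CPM; 4.08 ± 0.62 (SE), adjusted p = 0.000757). Mediators and targets of the pathway had 1 rise (BAMBI) and 11 falls among 21 tested of 26, and BAMBI was not called without ALI control library 2 or any 1 monolayer library. PMEPA1 (-3.1 ± 0.24 (SE), adjusted p = 1.13e-05), TGFBI (-2.53 ± 0.43 (SE), adjusted p = 0.00142) and SMAD7 (-2.39 ± 0.32 (SE), adjusted p = 0.000342), all classical targets, were lower in every ALI control library.

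Notch signalling, which pushes keratinocytes out of the basal layer, had 5 rises and 5 falls among 22 tested members of 27, against 20.3% and 20.2% of all tested genes. NOTCH1 fell from 521, 442 and 391 to 126, 67.2 and 128 CPM (-2.08 ± 0.39 (SE), adjusted p = 0.00231), and its ligands JAG1 (-1.36 ± 0.21 (SE), adjusted p = 0.000883), JAG2 (-1.88 ± 0.37 (SE), adjusted p = 0.00331) and DLL1 (-2.5 ± 0.22 (SE), adjusted p = 2.33e-05) fell too. NRARP, a feedback target of Notch, rose from 1.06, 0.506 and 0.532 to 27.7, 51.5 and 29.7 CPM (5.62 ± 0.49 (SE), adjusted p = 2.21e-05). The target HES4 rose by 1.33 ± 0.32 (SE), and HES5 had 0 counts in monolayer and 1.21, 0.757 and 1.16 CPM in ALI control, at least 11.6-fold higher. NOTCH3, a marker of suprabasal cells, was at 23.8, 1.01 and 1.06 CPM in monolayer and 97.5, 46.8 and 117 CPM in ALI control (3.3 ± 0.98 (SE), adjusted p = 0.0231). Monolayer library 1 held most of its monolayer signal, and the adjusted p was 0.05 to 0.0552 when ALI control library 1 or 3 or monolayer library 2 or 3 was left out.

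WNT genes fell more often than they rose: 1 of 32 tested members (52 listed) rose and 17 fell, against 20.3% and 20.2% of all tested genes. The median was -1.13. WNT7A went from 66.1, 108 and 95 to 18.9, 6.43 and 30.4 CPM (-2.26 ± 0.46 (SE), adjusted p = 0.00383). WNT5B went from 16.1, 21.9 and 18.9 to 1.34, 1.26 and 2.54 CPM (-3.44 ± 0.35 (SE), adjusted p = 5.69e-05). The receptor FZD2 went from 11.5, 14.1 and 14.6 to 1.21, 2.14 and 0.846 CPM (-3.26 ± 0.58 (SE), adjusted p = 0.00179). The co-receptor LRP5 fell by 2.25 and the antagonist DKK3 by 1.09 on the log2 scale. WNT4 was the member that rose (2.35 ± 0.71 (SE), adjusted p = 0.0246), at 1.88, 4.67 and 1.59 CPM in ALI control; its adjusted p was 0.0793 to 0.0838 when ALI control library 2 or either of monolayer libraries 2 and 3 was omitted, and 2 members rose without monolayer library 1. CTNNB1 (beta-catenin), the pathway's transducer, was not called (-0.24 ± 0.20 (SE), adjusted p = 0.361).

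The insulin and IGF list had 4 rises and 7 falls among 16 tested members of 19, against 20.3% and 20.2% of all tested genes. IGFL1, a small skin-expressed relative of IGF, went from 0.779, 0.911 and 1.6 to 572, 671 and 846 CPM (9.33 ± 0.45 (SE), adjusted p = 8.24e-07). IGFL2 went from 1.06, 0 and 0 to 147, 165 and 208 CPM (8.64 ± 0.78 (SE), adjusted p = 2.9e-05). Both were under 2 CPM in every monolayer and above 100 CPM in every ALI control library. The receptor IGF1R fell from 454, 358 and 336 to 94.3, 51.2 and 84.8 CPM (-2.32 ± 0.29 (SE), adjusted p = 0.000245). IGF-binding proteins parted, with IGFBP2 up (4.97 ± 0.56 (SE), adjusted p = 0.000114) and IGFBP4 down (-4.46 ± 0.32 (SE), adjusted p = 7.58e-06). FGFBP1, a carrier that frees FGFs from matrix, rose from 54.4, 80.1 and 83.5 to 631, 653 and 807 CPM (3.26 ± 0.35 (SE), adjusted p = 8.84e-05). FGFR3 rose from 7.37, 1.01 and 1.28 to 47.7, 21.1 and 66.5 CPM (3.75 ± 0.76 (SE), adjusted p = 0.00354). The FGF list held 2 rises and 4 falls among 8 tested of 18, against 20.3% and 20.2% of all tested genes. FGFBP1 and FGFR3 are its 2 rises, and the 4 members that fell are not described. Rises numbered 4 without ALI control library 2 and falls 2 without monolayer library 1.

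Of 18 tested PDGF, VEGF and other receptor kinase genes (28 listed) 1 rose and 11 fell. PDGFA went from 80.7, 74.3 and 76.4 to 12.2, 18.3 and 12.5 CPM (-2.43 ± 0.22 (SE), adjusted p = 3.04e-05). PDGFB went from 34.1, 67.2 and 67.4 to 11.8, 3.03 and 8.56 CPM (-2.85 ± 0.45 (SE), adjusted p = 0.00086). VEGFC, the lymphatic growth factor, went from 46.3, 63 and 64.2 to 8.71, 6.68 and 8.67 CPM (-2.85 ± 0.32 (SE), adjusted p = 0.000103). These ligands were lower in every ALI control library than in any monolayer, and 57.3% of all tested genes did not overlap between the groups. Semaphorins and plexins had 3 rises and 16 falls among 24 tested of 31, and 1 rise without monolayer library 2 or 3. SEMA7A, a membrane-anchored semaphorin that binds integrins, fell from 115, 179 and 163 to 15.3, 3.03 and 12.2 CPM (-3.9 ± 0.53 (SE), adjusted p = 0.00037). PLXNA2 fell by 2.26 on the log2 scale. Ephrins and Eph receptors, which sort cells by contact, were mixed, with 6 rises and 4 falls among 14 tested of 20. EPHA4 rose from 23, 2.02 and 1.28 to 68.3, 100.1 and 75.1 CPM (3.18 ± 0.86 (SE), adjusted p = 0.0147). EFNA3 rose by 4.43 ± 0.46 (SE), and EPHB2 fell from 33.5, 8.9 and 10.2 to 0.804, 1.51 and 1.9 CPM (-3.62 ± 0.58 (SE), adjusted p = 0.000978). For EPHA4 and EPHB2 monolayer library 1 was the highest monolayer, for EPHA4 by more than 10 times.

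**Figure D3:**
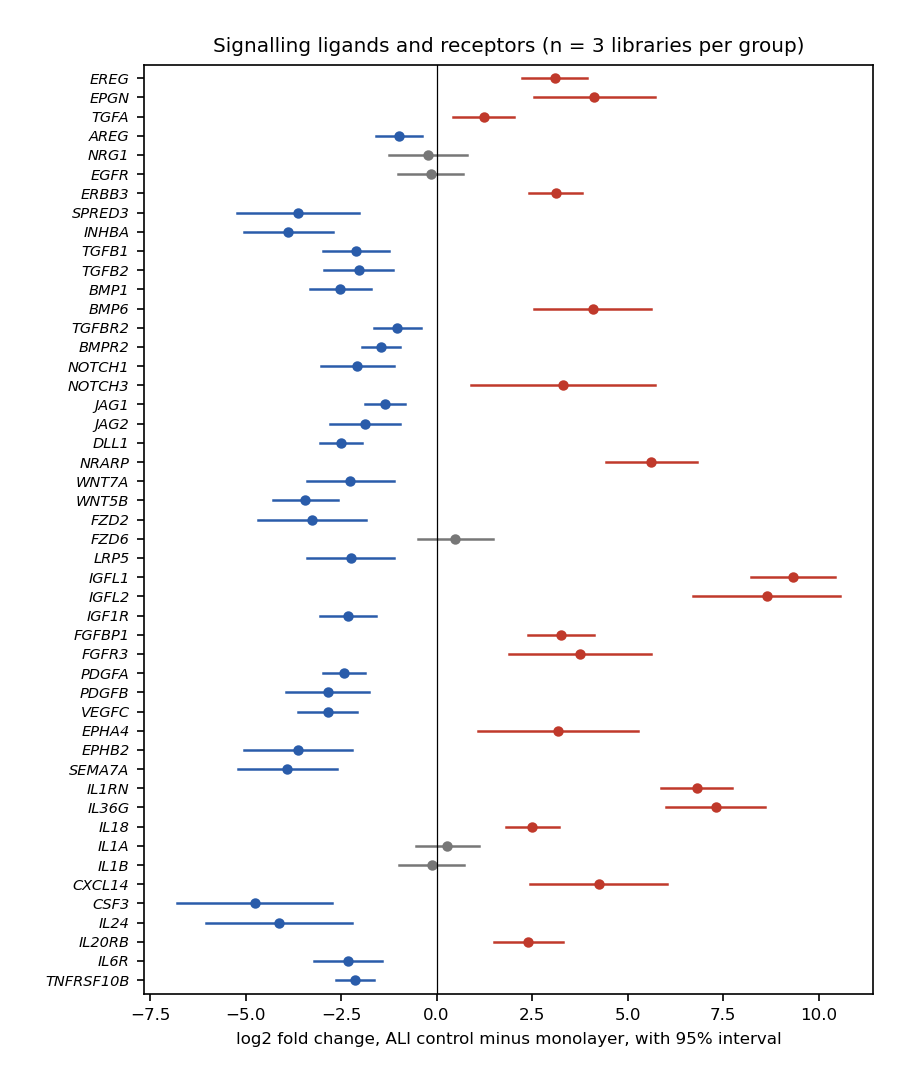
Log2 fold change (ALI control minus monolayer, 3 libraries each) of signalling ligands and receptors with its 95% interval; red was called higher, blue lower and grey neither. IGFL1, IGFL2, IL36G and IL1RN lie farthest to the right, CSF3, IL24, SEMA7A and INHBA farthest to the left, and the intervals of EGFR, IL1A and IL1B span 0.

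Interleukin-1 family genes, alarm signals of epithelia, rose without a fall: 10 of 17 tested members (20 listed) were higher and 0 lower, and these 10 calls held in every leave-one-out fit. Falls were also 0 at an unadjusted p under 0.05 in edgeR, with DESeq2 and with limma-voom, but 1 member fell on log2(RPKM + 1). The receptor antagonist IL1RN went from 9.63, 7.89 and 6.17 to 972, 778 and 923 CPM (6.81 ± 0.38 (SE), adjusted p = 1.63e-06). The IL-36 agonist IL36G went from 0.212, 0.506 and 0.532 to 97.7, 34.4 and 61.8 CPM (7.3 ± 0.53 (SE), adjusted p = 7.88e-06). The IL-36 receptor antagonist IL36RN went from 0.142, 0 and 0 to 192, 186 and 164 CPM, a ratio of 3000 (95% interval 830.0 to 24800, counting error only). IL18 rose from 30.7, 21.6 and 18.2 to 151, 141 and 110.1 CPM (2.51 ± 0.28 (SE), adjusted p = 0.000115). IL1A (259.9, 312 and 331 against 324, 570.1 and 205 CPM; 0.28 ± 0.34 (SE), adjusted p = 0.529) and IL1B (156, 286 and 272 against 185, 325 and 142 CPM; -0.13 ± 0.35 (SE), adjusted p = 0.785), the family's main agonists, overlapped between the groups and were not called. ALI control library 2 was the highest for both.

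Among 20 tested cytokines and chemokines (35 listed) 7 rose and 6 fell, with 4 rises without monolayer library 2 or 3. CXCL14, a chemokine of normal squamous epithelium, rose from 39.1, 5.16 and 5.11 to 258, 352 and 334 CPM (4.24 ± 0.73 (SE), adjusted p = 0.00152), and CXCL17, a mucosal chemokine, had 0 counts in monolayer and 5.22, 12 and 7.3 CPM in ALI control (at least 90.9-fold higher). CSF3 (G-CSF) fell from 28.3, 87 and 82.3 to 4.55, 0.757 and 2.01 CPM (-4.76 ± 0.83 (SE), adjusted p = 0.00157). CSF1 (M-CSF) went from 27, 21.8 and 21.8 to 0.804, 0.883 and 0.846 CPM (-4.78 ± 0.28 (SE), adjusted p = 1.74e-06). IL24 went from 39.2, 30.1 and 33.6 to 3.75, 0.252 and 1.9 CPM (-4.13 ± 0.78 (SE), adjusted p = 0.00251). TSLP, an alarmin studied in allergic esophageal disease, was called (2.99 ± 0.94 (SE), adjusted p = 0.0292) with 1.61, 12 and 1.27 CPM in ALI control, most of it in library 2, and was not called without that library (adjusted p = 0.19) or without any 1 monolayer library (adjusted p 0.0587 to 0.0985). Cytokine receptors had 6 rises and 9 falls among 29 tested of 32, against 20.3% and 20.2% of all tested genes. The IL-20 receptor chains IL20RB (2.4 ± 0.37 (SE), adjusted p = 0.000804) and IL20RA (5.47 ± 0.62 (SE), adjusted p = 0.00011) rose, and IL6R (-2.32 ± 0.36 (SE), adjusted p = 0.000855) and LIFR (-2.52 ± 0.24 (SE), adjusted p = 3.93e-05) fell. TNF superfamily genes had 1 rise and 9 falls among 23 tested of 33; the rise, TNFSF10 (TRAIL), had an adjusted p of 0.0927 to 0.162 when ALI control library 1 or 3, or monolayer library 2 or 3, was omitted, while TNF (-2.87 ± 0.59 (SE), adjusted p = 0.00393) and the TRAIL receptor TNFRSF10B (-2.13 ± 0.20 (SE), adjusted p = 3.66e-05) fell.

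G protein-coupled receptors had 12 rises and 14 falls among 42 tested members of 62, against 20.3% and 20.2% of all tested genes. Falls numbered 9 without monolayer library 2 and 8 without library 3. GPRC5A, induced by retinoic acid, rose from 7.01, 4.86 and 4.79 to 142, 67.6 and 151 CPM (4.43 ± 0.35 (SE), adjusted p = 1.21e-05). PTGER3, a prostaglandin E2 receptor, had 0 counts in monolayer and 8.97, 26.5 and 4.02 CPM in ALI control, highest in library 2 (at least 141-fold higher). S1PR3, a receptor for sphingosine-1-phosphate, fell from 15.6, 23.4 and 24.1 to 2.28, 0.378 and 2.12 CPM (-3.71 ± 0.59 (SE), adjusted p = 0.000958).

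The retinoid and barrier lipid lists had the largest medians among the metabolic lists. Barrier lipid synthesis makes the ceramides and bound lipids of the squamous surface. Of 36 tested members (42 listed) 26 rose and 4 fell, 2 without monolayer library 3, and the median was 3.25. The list's summed level was 1189, 1191 and 1209 CPM in monolayer and 2864, 4129 and 2832 CPM in ALI control. ABCA12 went from 49.9, 19.3 and 18.8 to 406, 1063 and 437 CPM (4.43 ± 0.56 (SE), adjusted p = 0.000247). CERS3 (the synthase of very-long-chain ceramides) went from 28.9, 16.8 and 20.01 to 157, 348 and 149 CPM (3.31 ± 0.42 (SE), adjusted p = 0.000231). ELOVL4 (the elongase that feeds it) went from 12.5, 15.8 and 16.1 to 113, 217 and 76.3 CPM (3.2 ± 0.39 (SE), adjusted p = 0.000174). ALI control library 2 was the highest for these 3 genes. ALOX12B, a lipoxygenase that acts on linked ceramides, was highest in libraries 1 and 3 instead (0.142, 0.405 and 0.319 against 86.7, 28.2 and 95.4 CPM; 7.94 ± 0.75 (SE), adjusted p = 3.7e-05). SULT2B1 (cholesterol sulfotransferase) had 1 count in the monolayer group and a ratio of 4090 (95% interval 733 to 161000, counting error only). LIPM and ACER1 had 0 counts there and were at least 558-fold and 194-fold higher. CERS2, the ceramide synthase of most other tissues, fell by 0.69 on the log2 scale.

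Retinoid metabolism had 9 rises and 1 fall among 13 tested members of 25, with a median of 4.34. RDH12, a retinal reductase, went from 0.142, 0.101 and 0.319 to 72.9, 298 and 105 CPM (9.69 ± 0.91 (SE), adjusted p = 3.61e-05), highest in library 2. CRABP2, a carrier of retinoic acid, went from 19.7, 2.83 and 2.13 to 477, 190.5 and 562 CPM (5.61 ± 0.84 (SE), adjusted p = 0.000675). FABP5, a fatty acid carrier that also binds it, went from 14.8, 8.7 and 9.79 to 393, 524 and 494 CPM (5.4 ± 0.33 (SE), adjusted p = 2.79e-06). Both rose to above 100 CPM in every ALI control library. LRAT, which stores retinol as ester, rose from 0.354, 0.304 and 0.213 to 8.97, 20.6 and 9.73 CPM (5.41 ± 0.54 (SE), adjusted p = 5.41e-05). SDR16C5 rose by 4.34 ± 0.38 (SE). DHRS3, which returns retinal to retinol and is itself a retinoic acid target, fell (-1.88 ± 0.29 (SE), adjusted p = 0.000775).

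Of 48 tested detoxification genes (52 listed) 21 rose and 10 fell, against 20.3% and 20.2% of all tested genes. ADH7 had 0 counts in monolayer and 68.5, 237 and 84.6 CPM in ALI control, at least 1430-fold higher, and CYP4B1 had 0 counts and 38.3, 12 and 44.1 CPM, at least 358-fold higher. GPX2, a glutathione peroxidase, rose from 1.7, 2.83 and 2.98 to 33.8, 40.2 and 55 CPM (4.11 ± 0.30 (SE), adjusted p = 7.64e-06). ALDH3B2 rose from 0.991, 0.607 and 0.638 to 119, 105 and 135 CPM (7.26 ± 0.29 (SE), adjusted p = 5.95e-07). NQO1, the reference target of the factor NRF2, fell from 252, 339 and 328 to 122, 204 and 137 CPM (-0.99 ± 0.24 (SE), adjusted p = 0.0084). MT2A, a metal-binding protein, fell by 1.17 on the log2 scale. Eicosanoid genes had 9 rises and 1 fall among 16 tested of 23, and 2 falls without ALI control library 2. HPGD, which breaks prostaglandins down, rose from 0, 0.101 and 0.532 to 92.7, 171 and 61 CPM (9.11 ± 1.04 (SE), adjusted p = 0.000124). PTGS2 (COX-2), which makes them, fell from 27.9, 26.5 and 26.8 to 14.9, 3.91 and 5.08 CPM (-1.77 ± 0.47 (SE), adjusted p = 0.0129).

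Fatty acid synthesis had 3 rises and 8 falls among 19 tested of 23. The desaturases that make polyunsaturated chains fell. FADS2 went from 236, 291 and 287 to 19.6, 14.9 and 21.2 CPM (-3.87 ± 0.29 (SE), adjusted p = 1.03e-05). FADS1 went from 120.0, 108 and 107 to 10.3, 11.6 and 7.93 CPM (-3.49 ± 0.24 (SE), adjusted p = 5.36e-06). The acyl-CoA synthetase ACSL1 rose from 26.3, 16 and 17.1 to 253, 265 and 232 CPM (3.65 ± 0.25 (SE), adjusted p = 5.52e-06). SCD, the abundant stearoyl-CoA desaturase, was not called (1828, 2088 and 2127 against 2440, 1893 and 2254 CPM; 0.12, 95% interval -0.47 to 0.72). Triglyceride and phospholipid genes had 13 rises and 3 falls among 31 tested of 35. PLA2G4E, a group IV phospholipase, went from 0.0708, 0.101 and 0.319 to 274, 64.5 and 258 CPM (10.25 ± 0.75 (SE), adjusted p = 8.1e-06). DGAT2, the last step of triglyceride synthesis, went from 2.62, 2.73 and 2.87 to 83.5, 86.7 and 98.3 CPM (5.03 ± 0.38 (SE), adjusted p = 9.86e-06). Cholesterol genes had 7 rises and 4 falls among 31 tested of 34, against 20.3% and 20.2% of all tested genes. There were 4 rises without any 1 monolayer library and 7 falls without ALI control library 2. TM7SF2, a sterol reductase, rose from 1.84, 1.82 and 1.6 to 52.9, 35.8 and 66.9 CPM (4.87 ± 0.41 (SE), adjusted p = 1.89e-05), and of the sterol exporters ABCG1 rose (1.63 ± 0.28 (SE), adjusted p = 0.00136) and ABCA1 fell (-2.17 ± 0.33 (SE), adjusted p = 0.000727).

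Glycolysis and glucose uptake had 2 rises and 9 falls among 34 tested of 38 (20.3% and 20.2% of all tested genes rose and fell), with 4 falls without monolayer library 2 and 5 without library 3. HK2 (hexokinase 2) rose from 25.5, 16.9 and 13.4 to 111, 77.2 and 111 CPM (2.42 ± 0.28 (SE), adjusted p = 0.000119). PFKFB2 rose by 2.29 ± 0.35 (SE), while PFKFB4 fell by 2.18 and the lactate exporter SLC16A3 fell from 257, 334 and 307 to 86.8, 37.6 and 90.2 CPM (-2.06 ± 0.35 (SE), adjusted p = 0.00147). GAPDH was not called (-0.32 ± 0.29 (SE), adjusted p = 0.404). TALDO1, of the pentose phosphate pathway, rose from 78.6, 102 and 113 to 211, 252 and 237 CPM (1.26 ± 0.22 (SE), adjusted p = 0.00147).

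Nuclear-encoded subunits of oxidative phosphorylation had 33 rises and 1 fall among 74 tested of 81, with a median of 0.66, but the count and the size rested on single libraries. Rises numbered 14, 13 and 17 without monolayer libraries 1, 2 and 3, the fall (COX6B2) was not called without monolayer library 1 or any 1 ALI control library, and the median was 0.38 without ALI control library 2. Summed levels were 4590, 4905 and 5099 CPM in monolayer and 6168, 10410 and 7092 CPM in ALI control, where library 2 was the highest and the groups did not overlap. COX7C, a subunit of complex IV, went from 20.4, 20.03 and 19.5 to 63.1, 175 and 72.1 CPM (2.37 ± 0.36 (SE), adjusted p = 0.000764). ATP5B, the catalytic subunit of ATP synthase, went from 252, 309.7 and 312 to 565, 662 and 732 CPM (1.16 ± 0.21 (SE), adjusted p = 0.00194). CYCS (cytochrome c) went from 102, 88.2 and 95 to 230.1, 374 and 126 CPM (1.36 ± 0.35 (SE), adjusted p = 0.0113). These 3 kept their calls in every leave-one-out fit. In the citric acid cycle 6 of 26 tested members rose (3 without monolayer library 1) and 1 fell, with SDHB up (1.12 ± 0.22 (SE), adjusted p = 0.00301) and ACO1, the cytosolic aconitase, down (-1.29 ± 0.21 (SE), adjusted p = 0.00113); without ALI control library 3 there were 2 falls. Fatty acid oxidation had 6 rises and 1 fall among 23 tested of 29, against 20.3% and 20.2% of all tested genes. Its rises numbered 3, 2 and 3 without monolayer libraries 1, 2 and 3, and its falls 2 without ALI control library 2.

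Ribosome biogenesis had 19 rises and 0 falls among 40 tested of 40, with a median of 0.77; without monolayer library 2 there were 12 rises. Falls stayed at 0 at an unadjusted p under 0.05 in edgeR, with DESeq2 and with limma-voom. Summed levels were 2898, 2725 and 2726 CPM in monolayer and 4835, 5160 and 4998 CPM in ALI control, with similar values within each group. GNL3 (nucleostemin), DKC1 (dyskerin) and DDX21 rose by 1.89 ± 0.28 (SE), 1.81 ± 0.26 (SE) and 1.32 ± 0.24 (SE). Cytosolic ribosomal proteins had 3 rises and 0 falls among 80 tested of 82, against 2 falls at an unadjusted p under 0.05 in edgeR, 1 with DESeq2 and 0 with limma-voom. Their sum was 49830, 36330 and 36800 CPM in monolayer and 34620, 85520 and 44060 CPM in ALI control, and the list's median of 0.53 became -0.02 without ALI control library 2, which also gave 1 fall; rises numbered 11 without ALI control library 1, 5 without library 3 and 1 without any 1 monolayer library. Amino acid transporters had 2 rises and 5 falls among 22 tested of 27, against 20.3% and 20.2% of all tested genes. SLC6A14 had 2 counts in the monolayer group and 370.1, 377 and 212 CPM in ALI control, a ratio of 5220 (95% interval 1440 to 43100, counting error only). SLC7A5 (LAT1), the main leucine importer, fell from 3160, 2581 and 2417 to 1240, 944 and 1137 CPM (-1.3 ± 0.27 (SE), adjusted p = 0.00386).

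Genes of contact with the matrix were mostly lower and desmosome genes mostly higher. Hemidesmosome and laminin-332 genes, which anchor basal cells, had 10 tested members of 10, of which 8 fell and 0 rose, with a median of -2.45. Rises were also 0 at an unadjusted p under 0.05 in edgeR, with DESeq2 and with limma-voom. Their summed level was 30400, 37810 and 35870 CPM in monolayer and 10330, 6086 and 9894 CPM in ALI control. Chains of laminin-332 fell. LAMA3 went from 5852, 8373 and 7961 to 1556, 589.8 and 1321 CPM (-2.68 ± 0.40 (SE), adjusted p = 0.000615). LAMB3 went from 3118, 4429 and 4129 to 939.8, 293 and 915 CPM (-2.44 ± 0.46 (SE), adjusted p = 0.00238). ALI control library 2 was the lowest for both. COL17A1 (4821, 4711 and 4371 against 1211, 603 and 1311 CPM; -2.15 ± 0.35 (SE), adjusted p = 0.00117) and ITGB4 (2042, 2016 and 1865 against 447, 123 and 514 CPM; -2.45 ± 0.52 (SE), adjusted p = 0.00465), the membrane parts of the hemidesmosome, fell as well. ITGA6, the partner of ITGB4, was not called (1388, 1671 and 1725 against 1562, 937 and 1210 CPM; -0.37 ± 0.27 (SE), adjusted p = 0.303), and neither was DST (0.22 ± 0.29 (SE), adjusted p = 0.574).

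Integrin and focal adhesion genes had 2 rises and 19 falls among 32 tested of 46, with a median of -1.28. ITGA2, a collagen receptor chain, went from 523, 1084 and 1080 to 159.7, 115 and 107 CPM (-2.82 ± 0.36 (SE), adjusted p = 0.000249). ITGA5, the fibronectin receptor chain, went from 327, 550.1 and 514 to 85.6, 35.7 and 91.4 CPM (-2.71 ± 0.38 (SE), adjusted p = 0.00045). ITGB6, whose integrin activates TGF-beta, went from 367, 416 and 414 to 67.5, 42.4 and 72.8 CPM (-2.71 ± 0.25 (SE), adjusted p = 2.81e-05). None of the 3 overlapped between the groups, as held for 57.3% of all tested genes. ITGB1, the common partner, fell by 1.27 on the log2 scale. The 2 members that rose were ITGB8 (33.1, 10.6 and 10.5 against 158, 132 and 78.7 CPM; 2.75 ± 0.47 (SE), adjusted p = 0.00145) and ITGB7, which went from 0.85, 0.101 and 0.213 to 13.4, 15.8 and 22.3 CPM (5.28 ± 0.68 (SE), adjusted p = 0.000262).

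Most matrix genes fell. Of 47 tested extracellular matrix genes (84 listed) 37 fell and 3 rose, with a median of -2.18, and the rises numbered 1 without ALI control library 3 or monolayer library 2 or 3. The summed level was 82110, 98690 and 92030 CPM in monolayer and 10320, 4337 and 10170 CPM in ALI control. FN1 alone stood at 43870, 51820 and 47380 CPM in monolayer and 499.5, 257 and 351 CPM in ALI control (-7.01 ± 0.47 (SE), adjusted p = 4.41e-06). COL4A2, a basement membrane collagen chain, went from 433, 475 and 441 to 33.5, 6.94 and 37.6 CPM (-4.11 ± 0.66 (SE), adjusted p = 0.001). HSPG2 (perlecan), also of the basement membrane, went from 799.8, 776 and 649 to 50.2, 21.2 and 54.7 CPM (-4.14 ± 0.49 (SE), adjusted p = 0.000152). FBN1 (fibrillin 1), of elastic microfibrils, went from 100.5, 75.4 and 69.8 to 2.81, 2.27 and 4.86 CPM (-4.61 ± 0.60 (SE), adjusted p = 0.000292). In these 3 genes the lowest monolayer was more than 10 times the highest ALI control library. ECM1, an epidermal matrix protein, rose from 6.73, 15.6 and 18 to 191, 55.1 and 212 CPM (3.51 ± 0.55 (SE), adjusted p = 0.000895). Matrix-modifying genes had 2 rises and 23 falls among 40 tested of 57. LOXL2, a collagen cross-linker, went from 133, 255 and 234 to 14.7, 3.15 and 14.7 CPM (-4.25 ± 0.67 (SE), adjusted p = 0.000896). MMP14, a membrane metalloproteinase, went from 1188, 1447 and 1386 to 280.2, 232 and 322 CPM (-2.27 ± 0.27 (SE), adjusted p = 0.000149). PLAU (urokinase), which activates plasmin, went from 1258, 1295 and 1264 to 224, 136 and 233 CPM (-2.69 ± 0.28 (SE), adjusted p = 7.18e-05).

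Desmosome genes moved the other way: 10 of 16 tested members (17 listed) rose and 1 fell, with a median of 2.29 and summed levels of 8124, 6363 and 6299 CPM in monolayer and 29900, 19760 and 27130 CPM in ALI control. DSG1, the suprabasal cadherin, went from 0.496, 0.101 and 1.17 to 1550, 1614 and 1648 CPM (11.41 ± 0.61 (SE), adjusted p = 1.25e-06). DSC1, its partner, went from 1.27, 0.202 and 0 to 129.9, 156 and 138 CPM (7.94 ± 0.65 (SE), adjusted p = 1.55e-05). DSG3, present in all layers of esophagus, rose from 776, 460.3 and 477 to 2923, 3246 and 2584 CPM (2.35 ± 0.32 (SE), adjusted p = 0.000324). DSG2, the cadherin of simple and basal epithelium, fell by 0.91 on the log2 scale. PPL (periplakin, 8.92, 6.98 and 9.15 against 1034, 317 and 1091 CPM; 6.6 ± 0.51 (SE), adjusted p = 1.04e-05), PKP1 (plakophilin 1, 2.57) and CDSN (corneodesmosin, 1.91, 1.31 and 1.6 against 186, 193 and 191 CPM; 6.86 ± 0.24 (SE), adjusted p = 3.36e-07) rose. EVPL (envoplakin) rose less in ALI control library 2 than in libraries 1 and 3 (26, 30.1 and 27.9 against 319, 48.7 and 336 CPM; 3.07 ± 0.61 (SE), adjusted p = 0.0033).

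Tight junction genes had 12 rises and 1 fall among 27 tested of 44, with a median of 0.21 (0.03 with total-count scaling); without ALI control library 3 there were 2 falls. CLDN1 (32.8, 6.07 and 6.28 against 921, 850.3 and 592 CPM; 5.7 ± 0.68 (SE), adjusted p = 0.000159), the main squamous claudin, was higher in monolayer library 1 than in libraries 2 and 3. CLDN4 (0.708, 0.506 and 0.638 against 77.3, 34.3 and 69.8 CPM; 6.57 ± 0.46 (SE), adjusted p = 6.14e-06), CLDN7 (2.41, 1.01 and 0.851 against 34.6, 40.5 and 40.7 CPM) and OCLN (occludin, 0.425, 0 and 0.213 against 48.9, 94.8 and 45.5 CPM; 8.0 ± 0.67 (SE), adjusted p = 1.74e-05) rose from under 3 CPM in every monolayer. CLDN17 had 1 count in the monolayer group and a ratio of 4120 (95% interval 740.0 to 163000, counting error only). TJP3 had 0 counts there and was at least 153-fold higher. Gap junction genes had 4 rises and 2 falls among 12 tested of 21, against 20.3% and 20.2% of all tested genes. GJB6 (connexin 30) rose from 39.7, 19.3 and 20.5 to 364, 294 and 354 CPM (3.66 ± 0.33 (SE), adjusted p = 2.96e-05). GJB2 (connexin 26) and GJA1 (connexin 43) were not called (0.7 ± 0.39 (SE), adjusted p = 0.18; 0.58 ± 0.33 (SE), adjusted p = 0.181).

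Of 23 tested adherens junction genes (27 listed) 5 rose and 9 fell, and 3 rose without ALI control library 1 or 3 or any 1 monolayer library. CDH1 was not called (-0.15 ± 0.34 (SE), adjusted p = 0.738). CDH2 (N-cadherin) went from 23.2, 19.2 and 20.4 to 0.67, 0 and 0.423 CPM (-5.81 ± 0.56 (SE), adjusted p = 4.1e-05). CDH11, a mesenchymal cadherin, went from 89, 172 and 167 to 14.2, 8.2 and 11.6 CPM (-3.65 ± 0.36 (SE), adjusted p = 4.89e-05). CDH13 (T-cadherin) fell by 2.33 on the log2 scale. CDH3 (P-cadherin), of basal cells, fell from 1390, 1219 and 1161 to 549, 257 and 541 CPM (-1.48 ± 0.31 (SE), adjusted p = 0.00432). PVRL4 (nectin 4) rose from 5.74, 2.43 and 1.92 to 139, 105 and 144 CPM (5.23 ± 0.40 (SE), adjusted p = 1.09e-05). Among immunoglobulin-type and other adhesion molecules 13 of 37 tested members rose and 13 fell (46 listed), and the list's median changed sign with total-count scaling (0.03 and -0.12). CEACAM6, an adhesion molecule of mucosal surfaces, went from 0.708, 0.101 and 0.213 to 700.3, 443 and 689 CPM (10.62 ± 0.62 (SE), adjusted p = 2.03e-06), and CD24 rose by 1.48 ± 0.27 (SE). CD44, the hyaluronan receptor, fell (-1.17 ± 0.23 (SE), adjusted p = 0.00328), as did MCAM (-2.93 ± 0.47 (SE), adjusted p = 0.00105) and L1CAM (-2.49 ± 0.40 (SE), adjusted p = 0.00101). All 5 tested membrane mucins of 11 listed rose, MUC16 from 0.212, 0 and 0.106 to 65.1, 23.2 and 96.7 CPM and MUC1 from 0.567, 0.405 and 0 to 30.5, 10.8 and 30.03 CPM. The whole list summed to 2.05, 0.81 and 0.64 CPM in monolayer, so its members passed the low-count filter through ALI libraries. No member could have been called lower, and the count of 5 adds nothing to these levels.

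Actin contractile and stress fibre genes had 2 rises and 21 falls among 39 tested of 41, and 1 rise without ALI control library 1 or 3 or any 1 monolayer library. Summed levels did not overlap, though they came close: 22370, 39390 and 38350 CPM in monolayer, lowest in library 1, and 20970, 9312 and 20260 CPM in ALI control, lowest in library 2. VIM (vimentin), the mesenchymal intermediate filament, went from 1704, 2104 and 2094 to 158, 43.4 and 140.0 CPM (-4.11 ± 0.53 (SE), adjusted p = 0.000252). TPM2, a tropomyosin of contractile cells, went from 86.3, 136 and 129 to 11.2, 11.3 and 14.4 CPM (-3.25 ± 0.32 (SE), adjusted p = 4.76e-05). MYH14, a non-muscle myosin of epithelia, had 0 counts in monolayer and 9.24, 3.66 and 15.9 CPM in ALI control, at least 111-fold higher.

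**Figure D4:**
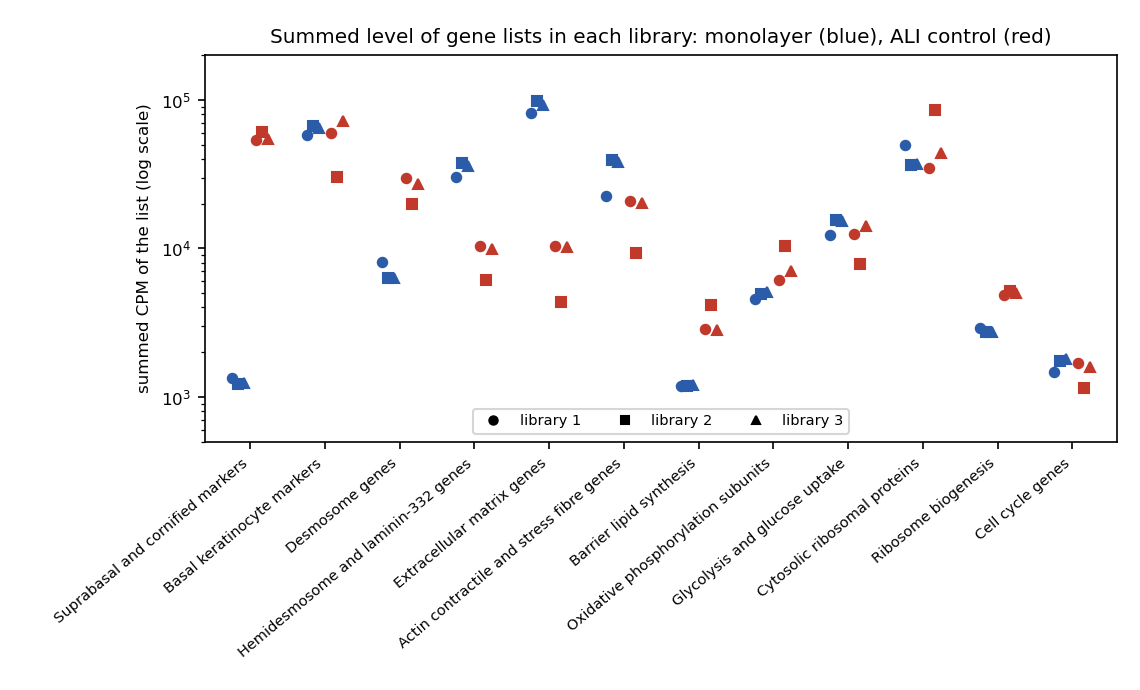
Summed CPM (log scale) of the tested and untested members of 12 gene lists in each library, monolayer in blue and ALI control in red, with circles, squares and triangles for libraries 1, 2 and 3. Extracellular matrix and hemidesmosome sums are lower and desmosome, barrier lipid and suprabasal sums higher in all 3 ALI control libraries, while basal marker and ribosomal protein sums overlap between the groups and ALI control library 2 lies apart.

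Basal and suprabasal keratinocyte markers did not move as mirror images. Of 49 tested suprabasal and cornified markers (52 listed) 47 rose and 1 fell, with a median of 8.76 and summed levels of 1348, 1221 and 1231 CPM against 53380, 61200 and 54430 CPM. IVL (involucrin) went from 1.98, 2.23 and 2.66 to 1023, 410.0 and 1061 CPM (8.51 ± 0.56 (SE), adjusted p = 4.3e-06). TGM1, the membrane transglutaminase, went from 1.56, 2.23 and 2.13 to 463, 226 and 585 CPM (7.76 ± 0.46 (SE), adjusted p = 2.03e-06). CALML3, a calmodulin-like protein of epithelial cells, was the member that fell (802, 577 and 552 against 88, 18.4 and 115 CPM; -3.12 ± 0.66 (SE), adjusted p = 0.00462). Of 20 basal markers 3 rose and 10 fell, and the sums overlapped (57790, 66620 and 64340 against 59820, 30490 and 71790 CPM). The falls included LAMA3, LAMB3, ITGA2, ITGA3, ITGB1, ITGB4, COL17A1, CDH3 and S100A2, while KRT15, a keratin of basal cells, rose from 82.5, 42.7 and 42.6 to 110.1, 154 and 160.3 CPM (1.34 ± 0.30 (SE), adjusted p = 0.00568). KRT17, a keratin of wounded and hyperproliferative epithelium, went from 3585, 3055 and 2946 to 14860, 6612 and 19340 CPM (2.09 ± 0.45 (SE), adjusted p = 0.00489). KRT14 was called higher (1.32 ± 0.43 (SE), adjusted p = 0.0325) and S100A2 lower (-0.87 ± 0.31 (SE), adjusted p = 0.0495), but KRT14 kept its call without ALI control library 2 only (adjusted p 0.0653 to 0.113 in the other 5 leave-one-out fits) and S100A2 in none of the 6 (adjusted p 0.0601 to 0.134). The simple-epithelial keratins KRT8 (285, 384 and 383 against 60.5, 21.7 and 56.7 CPM; -2.92 ± 0.39 (SE), adjusted p = 0.000324) and KRT19 (2655, 2862 and 2672 against 496, 217 and 609 CPM; -2.63 ± 0.40 (SE), adjusted p = 0.000725) fell.

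Cell cycle genes had 3 rises and 3 falls among 49 tested of 50, against 20.3% and 20.2% of all tested genes. Calls in both directions were fewer than that background. The median was 0.84, and 1.28 without ALI control library 2. The sums were 1482, 1753 and 1791 CPM in monolayer and 1680, 1154 and 1588 CPM in ALI control and overlapped. TOP2A, a topoisomerase of dividing cells, was at 3.19, 10.4 and 9.15 CPM in monolayer and 41.5, 3.66 and 41.5 CPM in ALI control (1.94 ± 1.16 (SE), adjusted p = 0.205), with ALI control libraries 1 and 3 above every monolayer and library 2 near the lowest. CCND2 (cyclin D2) fell by 0.93 on the log2 scale, CDC25B, an activator of mitotic kinases, rose by 1.95 ± 0.22 (SE), and the inhibitor CDKN2B (p15) rose from 61.8, 29.1 and 26.3 to 148, 115 and 99.5 CPM (1.62 ± 0.33 (SE), adjusted p = 0.00348). Falls numbered 1 without any 1 monolayer library or ALI control library 1 or 2, and rises 1 without ALI control library 3 or monolayer library 2 or 3. The E2F factors parted: E2F2 rose from 0.142, 0.101 and 0.106 to 7.77, 4.92 and 9.52 CPM (5.82 ± 0.70 (SE), adjusted p = 0.000177). E2F7, a repressor of the family, fell from 58.1, 72.7 and 71.2 to 14.3, 14.8 and 10.7 CPM (-2.35 ± 0.21 (SE), adjusted p = 2.71e-05). MXD1, a MYC antagonist of differentiating cells, rose from 15.3, 11.1 and 11.9 to 146, 102 and 109.5 CPM (3.22 ± 0.27 (SE), adjusted p = 1.81e-05). MYC was not called (0.64 ± 0.34 (SE), adjusted p = 0.16).

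Of 38 tested interferon-stimulated genes 6 rose and 5 fell, against 20.3% and 20.2% of all tested genes, with 3 falls without ALI control library 1 or monolayer library 1 or 3. RSAD2 (viperin), an antiviral enzyme, rose from 1.91, 2.73 and 2.02 to 23.4, 115 and 43.4 CPM (4.77 ± 0.57 (SE), adjusted p = 0.00016), highest in ALI control library 2, while IFI6 fell from 165, 143 and 146 to 37.6, 95 and 43 CPM (-1.37 ± 0.34 (SE), adjusted p = 0.00985). The unfolded protein and integrated stress response had 5 rises and 6 falls among 30 tested of 32, no more than the 20.3% and 20.2% of all tested genes. Its rises numbered 1 without ALI control library 2 or monolayer library 2 or 3 and 0 without monolayer library 1. Its sensor kinase ERN1 (IRE1) fell from 10.8, 17.3 and 16.1 to 4.82, 2.77 and 7.19 CPM (-1.57 ± 0.38 (SE), adjusted p = 0.00864). The hypoxia list had 2 rises and 4 falls among 19 tested of 20, against 20.3% and 20.2% of all tested genes, and 1 rise without monolayer library 2 or 3. EGLN3, an oxygen sensor, rose from 5.45, 1.92 and 3.73 to 33.2, 16.1 and 36.2 CPM (2.93 ± 0.60 (SE), adjusted p = 0.00379). DDIT4, an inhibitor of mTOR, fell from 444, 453 and 432 to 176, 210.1 and 171 CPM (-1.25 ± 0.22 (SE), adjusted p = 0.00147).

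Several gene clusters changed together along the chromosomes. In windows of 1 Mb with at least 8 tested genes (528 windows, hg19 as named in the submitters' processing notes), 25 of 27 genes rose between 152000001 and 153000000 on chromosome 1, which holds the filaggrin-type, SPRR and LCE genes of the cornified envelope. On chromosome 18, 11 of 12 rose between 61000001 and 62000000, of which 10 were clade B serpins, and on chromosome 19, 13 of 16 rose between 51000001 and 52000000, of which 11 were kallikreins. Keratin genes made up most rises in the type II cluster on chromosome 12 (7 of 10 between 52000001 and 53000000) and the type I cluster on chromosome 17 (13 of 20 between 39000001 and 40000000, with 2 falls, one of them KRT19). Among windows of falls, 11 of 19 genes fell between 105000001 and 106000000 on chromosome 14. These windows were ranked by their own counts, so the counts describe them and test nothing.

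**Figure D5:**
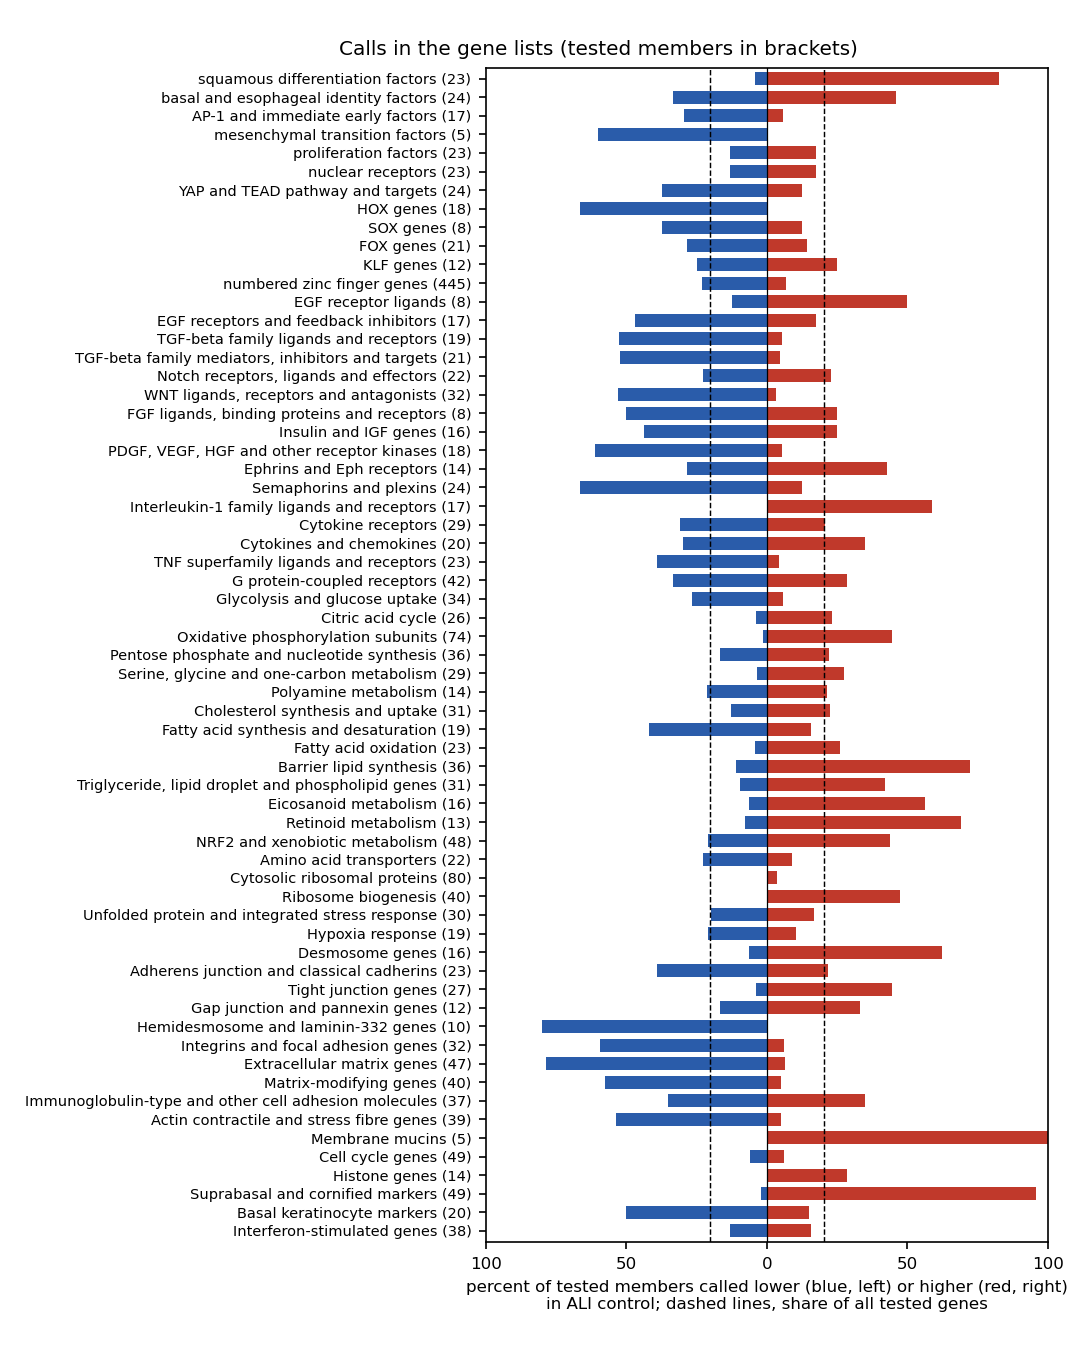
Share of tested members (percent) called lower (blue, to the left) or higher (red, to the right) in ALI control for the gene lists drawn, with the number tested in brackets and without the marker lists of other cell types, the simple epithelial keratins and the CDK inhibitors; dashed lines mark the shares over all tested genes, 20.2% and 20.3%. Suprabasal markers, membrane mucins, squamous factors and barrier lipid genes have the 4 longest red bars among the lists drawn, and hemidesmosome and extracellular matrix genes the 2 longest blue bars. The mucins had next to no reads in monolayer and could not have been called lower.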

How the data were processed

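RNA was measured by stranded polyA sequencing. The authors deposited whole-number counts and RPKM per transcript; the submitters' processing notes list Bowtie, MACS2, STAR 2.4.2a and the build hg19 with no step attached to any. Counter, annotation and strand setting: not given in the sources used here. The deposited counts and the deposited RPKM values were summed over the rows of 1 gene and chromosome. Reads shared by near-identical copies, overlapping genes or antisense partners may be split or merged.

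Counts of all 9 libraries were fitted with edgeR 4.0.16 (R 4.3.3; filterByExpr, trimmed-mean scaling, robust quasi-likelihood F-test, 6 residual degrees of freedom, Benjamini-Hochberg, threshold 0.05). Standard errors are the size of the log2 fold change divided by the square root of F, and 95% intervals of log2 fold changes use the t distribution. The 95% intervals of ratios are exact binomial intervals on counts summed over each group. For a gene with 0 counts in a group, the least fold takes 3 counts over that group as the floor. Alternatives used limma 3.58.1 and DESeq2 1.42.0. Tables were made with Python 3.11.15, pandas 2.3.3 and scipy 1.17.1. On simulated counts over 12365 genes for this comparison, 19% of 100 genes changed 2-fold and 88% of 100 genes changed 4-fold were recovered, with 4 false calls. The labels do not say that a number is a shared culture or day, so the numbers were not taken as pairs. Deviations of same-numbered libraries from their group means had correlations of -0.156, -0.217 and -0.013. With 3 libraries a group these values cannot exclude a pairing.

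The comparison, its members and the gene lists were chosen with earlier results of these data known. Named genes are, per list, up to 6 called members of largest change with at least 5 CPM and the 3 of highest level, the 12 largest rises and 12 largest falls with groups that do not overlap, and the 15 genes of highest RPKM per group. Genes named outside this rule were chosen after their values were seen: ALOX12B, BAMBI, BARX2, CALML3, CDH1, CDH10, CEBPA, CERS2, CERS3, CLDN7, COX6B2, DDIT4, DENND2A, DGAT2, DHRS3, DSG2, DST, ECM1, ELOVL4, ERBB2, HES4, HES5, ID1, IFI6, ITGA3, IVL, KDM6B, KRT10, KRT13, KRT15, KRT4, L1CAM, MCAM, NQO1, PAX9, PRDM1, RUNX1, SALL2, SV2A, TGM1, TNFSF10, TOP2A, TSLP and WNT4. Promoters matched 79.6% of tested genes, under the 80% that such a check needs, so a comparison of motif shares between called genes is void and is not given. A few results are not reported here.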

Additional observations from a re-analysis of the deposited data

How the results depend on the processing

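No called gene changed sign under any alternative. A test against a 2-fold change (edgeR's glmTreat) left 917 rises and 849 falls. Leaving out 1 library gave 1738 to 2721 rises and 1842 to 2620 falls. The fit with a replicate block gave 2463 rises and 2669 falls. Whether shared numbers mark a shared culture or day is not labelled, and the correlations cannot decide it. With monolayer libraries 2 and 3 summed as 1 sample, an alternative chosen after seeing the data, 1775 genes rose and 1905 fell. Total-count scaling moved the median of all genes from 0.03 to -0.12 and gave 2056 rises and 3056 falls. The cause of these shifts was not tested. Of 279 tested genes named here 255 were called, and 247 of them kept the call under every alternative other than the test against a 2-fold change. Most were named for a large change or a high level, so this share does not describe all calls. Of all 5190 calls, 1603 rises and 1664 falls held in all 6 leave-one-out fits. In the simulated data 19% of 2-fold changes were recovered. There, 200 genes were changed and all genes had 1 common spread, whereas 40.5% of the real tested genes were called. The 19% therefore does not give the share missed in the real data. Changes of that size may still be missed at 3 libraries a group.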
